A study of Rattus norvegicus with 9 samples.

Results

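The 4 rat embryo pools that carried wild-type human SOD1 were compared with the single negative control pool, over every Affymetrix probe set that is not a built-in array control. The members are 5 of the 9 arrays of the series, 4 wild-type hSOD1 pools and 1 control pool, chosen by their labels and not by any measured value. Each array held total RNA from ventral spinal cord of 5 pooled embryos at embryonic day 14. The wild-type pools are labelled hSOD1(Chan), replicates 1 to 4, and the control is labelled SDneg and described as the negative control, although its description also calls its embryos positive. The other 4 arrays carry the mutant transgene labelled G93R(Roth), and they enter below only as the reference for tests that do not need the control. The promoter that drives either transgene, the number of founder lines and the meaning of the names in brackets are not given in the sources used here. The transgene, the line, its insertion site and whatever the names mark go with the group and cannot be told apart. Replicates 2, 3 and 4 of both transgenic groups also carry a tag, le2, that replicate 1 and the control lack. The labels call the pools biological replicates but name no litters, so the p-values measure the spread between these pools.

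SOD1 is the cytosolic and mitochondrial intermembrane enzyme that turns superoxide into hydrogen peroxide, and it needs copper delivered by the chaperone CCS. Inherited mutations in it lead to amyotrophic lateral sclerosis, in which motor neurons die. Animals that carry the wild-type human gene are the usual control for the amount of human SOD1 protein, so the comparison with a control asks what the wild-type transgene and its line go with in the cord while motor neurons are being formed and wired.

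The arrays were alike in brightness. Their median intensities lay between 31.0 and 33.9 on the authors' linear scale, and the correlation of the wild-type arrays with the control, across probe sets that are not independent replicates, lay between 0.978 and 0.985. The beta-actin 3'/5' ratio, which climbs as RNA is shortened or copied less far, was 9.20, 19.2, 8.52 and 8.19 in wild-type replicates 1 to 4, 6.98 to 7.98 in the mutant pools and 6.66 in the control. All wild-type pools thus had a higher ratio than the control, and replicate 2 stood far above the others. Its GAPDH ratio was also the highest at 3.56, against 2.59 to 2.76 in the other wild-type pools and 2.68 in the control. The log2 actin ratio entered an alternative fit as a covariate. Without replicate 2, 14 of 163 named probe sets kept their direction but moved by over 1.5 times in log2 difference from the control, and 1 changed sign. Of the genes described in the Results, only Rbpj and Gata2 were among these 15. Rbpj went from -0.58 to -0.35 on probe set 1392668_at, and Gata2 from 0.22 to 0.015.

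The labelled tissue matched its markers in part. The summed intensity of 6 motor neuron markers was 3034 to 3824 in the wild-type pools against 3186 in the control, and all 6 were above the low-intensity filter. That filter removed probe sets with a mean intensity at or under about 17.3. Prph alone gave 1847 of the motor neuron sum in the control, and its log2 difference was 0.32. Isl1, Chat, Slc18a3 and Slc5a7 had log2 differences of -0.22 to -0.32 from the control, and Isl2 of 0.05. Of 5 ventral neural tube markers, 2 were above the filter, and Olig2 and Foxa2, defining genes of motor neuron progenitors and floor plate, were not. Sensory ganglion markers summed to 2795 to 3157 in the wild-type pools against 3155 in the control, with 2 of 4 above the filter. Sncg alone gave 2968 of that sum in the control, and Avil and Prdm12 were under the filter. None of the 4 red blood cell markers or of the 5 microglia and macrophage markers on the array was above the filter, with sums of 7.69 to 34.4 and 32.5 to 57.2 in the wild-type pools against 21.3 and 56.6 in the control. Of the mesenchyme, cartilage, muscle and endothelium markers, 1 of each list was above it, and none of these sums was above 62.1 in the wild-type pools or the control. In whole-tissue RNA, fewer cells of a type and less RNA per cell cannot be told apart.

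Transcripts that mark sex differed in part between the wild-type pools and the control. Xist, the RNA that coats the inactive X chromosome in females, had 2155, 2688, 1947 and 1442 in the wild-type pools against 3064 in the control, and the 4 wild-type pools were below the control on all 4 Xist probe sets, by log2 differences of -0.61 to -0.81. Eif2s3y, a gene of the Y chromosome, had 727, 367, 585 and 527 in the wild-type pools against 294 in the control. All 4 wild-type pools were below the control for the female transcript and above it for this male one. Uty, another gene of the Y chromosome, had pools on both sides of the control on its 1 probe set above the filter. Whether the pools differed in sex makeup, and the part of this in other genes, was not tested.

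Against the control, many probe sets had all 4 wild-type pools on 1 side, and few stood clear of the pools' own spread. Of 18625 probe sets above the filter, 7040 (37.8%) had all 4 pools on 1 side, 3126 (16.8%) with the pools above the control and 3914 (21.0%) with them below. Over all 31042 probe sets before the filter the share was 38.2%. A control like the pools would also often be the highest or lowest of the 5 arrays. These shares are therefore not read as an effect of the transgene. A stricter rule asked that the control lie farther from its nearest wild-type pool than the whole range of the 4 pools, here called a gap over the range. It held for 862 probe sets (4.63%), of which 465 (2.50%) were higher in the wild-type pools and 397 (2.13%) lower. These differences were small: the median size was 0.363 on the log2 scale for the higher and 0.366 for the lower ones, and past 2-fold were 17 and 1. The split by direction depended on the scaling. Of the gaps, 53.9% were higher in the wild-type pools as deposited and 70.5% after the arrays were centred on their medians, with 627 higher and 262 lower. Of probe sets with all pools on 1 side, 44.4% were higher as deposited and 57.6% after centring. The direction of a whole group of weakly changed genes is therefore read below only against all tested genes.

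No probe set passed limma's test of wild-type against control. With Benjamini-Hochberg adjustment over 18625 probe sets and the control assumed to vary like the transgenic pools, 0 reached an adjusted p under 0.05 (0% called), and 797 (4.28%) had an unadjusted p under 0.05, 422 higher and 375 lower. The smallest adjusted p was 0.0987. The median standard error of a log2 difference was 0.216, set mostly by the lone control. All values against the control that follow are descriptions of these pools. The test that does not use the control, wild-type against mutant pools, passed 3 of 18625 probe sets (0.0161%), all higher in the wild-type pools, with 918 (4.93%) at an unadjusted p under 0.05 and a median standard error of 0.136. The control is shared by the wild-type and mutant differences from it, so those 2 differences are set side by side and not correlated.

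**Figure D1:**
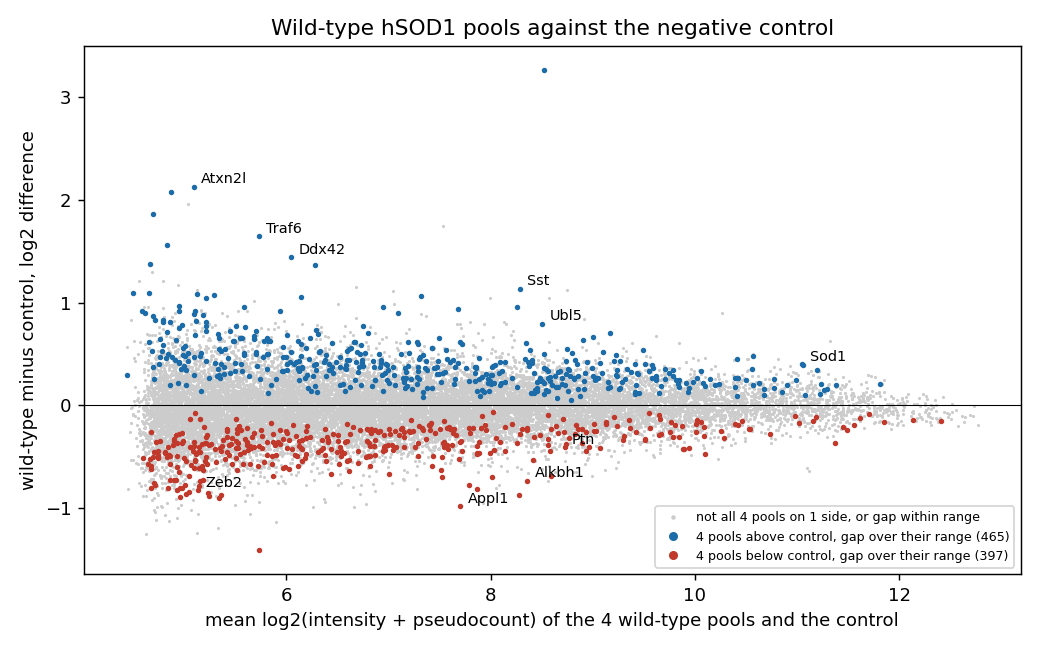
Log2 difference of the 4 wild-type pools from the control against the mean log2 intensity of those 5 arrays, 1 point per probe set above the filter. Blue points (465) have all 4 pools above the control and red points (397) all below it with a gap over the range of the pools. Most coloured points lie within 1 log2 unit of 0 at every brightness. The highest point, at 3.27, and the lowest red point, at -1.41, are probe sets with no gene symbol.

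Sst, which codes for somatostatin, a neuropeptide that inhibits hormone and transmitter release, lay above the control with a gap over the range and passed the test against the mutant pools. Its probe set 1367762_at had intensities of 384, 292, 382 and 383 in wild-type replicates 1 to 4 and 158 in the control, and 166, 231, 174 and 161 in the mutant pools. Every wild-type pool was above every other array, and the mutant pools lay near the control. The wild-type mean was 2.28-fold the control, a difference of 1.14 in log2 units (SE 0.21) with a limma adjusted p of 0.479. Against the mutant pools the log2 difference was 0.95 (SE 0.13, 95% interval 0.67 to 1.24, n = 4 each), which passed with a limma adjusted p of 0.0371. Leaving out 1 pool at a time, the call held in 2 of 8 fits, those without wild-type replicate 2 and without mutant replicate 2, and was lost without each of the other 6 pools, with adjusted p-values of 0.0107 to 0.195. The limma adjusted p was 0.0520 with quantile normalization, 0.193 without the intensity trend, 0.0856 with a replicate block, 0.0355 with median centring and 0.0986 with the log2 actin ratio as a covariate, where the log2 difference was 1.09.

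The Sst promoter was read to show what precedes this gene, from RefSeq's promoter table for the rat assembly GRCr8. It is the 250 bases before the annotated start at chr11:90461296-90461545, plus strand. The letters TGACGTCA, the cAMP response element that CREB binds, were searched on both strands and had no match in it, so it is printed wholly in lower case.
Sst: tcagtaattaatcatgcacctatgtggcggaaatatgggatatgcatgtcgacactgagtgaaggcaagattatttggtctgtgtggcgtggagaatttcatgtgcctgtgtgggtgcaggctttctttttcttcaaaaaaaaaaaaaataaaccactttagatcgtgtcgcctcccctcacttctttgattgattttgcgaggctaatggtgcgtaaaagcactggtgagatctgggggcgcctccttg
Of 33469 promoters of this length, 1.587% hold TGACGTCA. Of the 15 measured neuropeptide genes with an entry in the table, 2 hold it, Cartpt and Scg2. The Sst window ends at the annotated start, and bases after it were not searched. The absence of these letters from this window says nothing about CREB at the gene.

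The other neuropeptide and granin genes, whose products are packed into dense-core vesicles, lay mostly on the same side as Sst. Of 18 measured, 12 had all 4 wild-type pools above the control and 0 below, and 3 had a gap over the range, all above (Sst, Nppc and Chga). Over all 9868 tested genes, at 1 probe set each, 18.8% were above, 20.2% below, and gaps were 3.02% higher and 1.99% lower. With median centring these genes were 23.5% above and 14.2% below, and with 1 wild-type pool left out 22.3% to 25.3% above and 23.5% to 27.7% below. The counts of the lists that follow, at the brightest probe set of each gene, stand against these shares. The list's median log2 difference was 0.21 against -0.01 for all tested genes, and the mutant pools had a median of 0.19 from the same control. Under median centring, quantile normalization and leaving out each wild-type pool, 12 or 13 of the 18 were above, and 0 or 1 below.

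Nppc, which codes for C-type natriuretic peptide, which directs the branching of sensory axons, had 30.9, 25.2, 37.1 and 30.1 in the wild-type pools against 13.7 in the control, a log2 difference of 0.82 (SE 0.30). All 4 pools were clear of the control, and the mutant mean of 27.9 was close to theirs. Penk, the precursor of the enkephalins, had 207, 317, 292 and 281 against 183. Wild-type replicate 1 lay near the control and the other pools well above it. Calca, the precursor of calcitonin gene-related peptide, which motor and sensory neurons make, had 19.7, 30.1, 39.5 and 35.1 against 13.3. Of its other 2 probe sets, under the filter, 1 had all pools below the control and 1 had pools on both sides. Chga, which codes for chromogranin A, a granule matrix protein, had 457, 445, 484 and 508 against 347, and its mutant mean was 470.2. The remaining members above the control were Tac1 (log2 difference 0.48), Nts (0.44), Npy (0.21), Scg2 (0.21), Chgb (0.21), Scg3 (0.14) and Scg5 (0.09), while Gal, Pdyn, Cartpt, Adcyap1, Cck and Grp had pools on both sides. Only Sst of these 18 differed between wild-type and mutant pools at an adjusted p under 0.05.

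**Figure D2:**
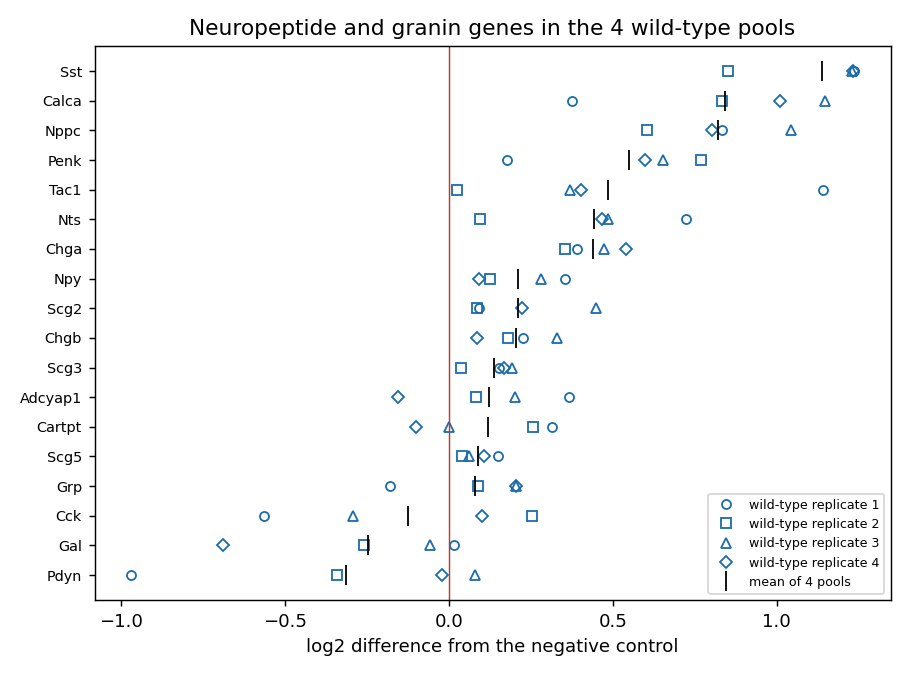
Log2 difference from the control of each wild-type pool for the 18 measured neuropeptide and granin genes, with the mean of the 4 pools as a bar and the control at 0. The 12 genes with all 4 symbols to the right of the line run from Scg5, with a mean of 0.09, to Sst, with a mean of 1.14.

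Sod1 itself, the rat gene of the transgene's kind, was higher in the pools with either transgene. Its probe set 1367641_at had 2139, 2442, 2299 and 2099.5 in the wild-type pools against 1699 in the control, a ratio of 1.32 and a log2 difference of 0.40 (SE 0.13) with a gap over the range. The mutant pools had 2279 ± 247 (SD, n = 4), and wild-type and mutant pools differed by -0.02 on the log2 scale (95% interval -0.20 to 0.16, limma adjusted p = 0.982). Whether this rat probe set also reads the human transcript could not be settled without probe sequences. Its copper chaperone Ccs had 237, 179, 229 and 218 in the wild-type pools against 179 in the control, where replicate 2 lay at the control's level.

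The other genes of superoxide and peroxide removal lay mostly on both sides of the control. Of 19 measured, 6 had all wild-type pools above the control (18.8% of all tested genes did), 1 below (3 without replicate 4), and Sod1 had the list's 1 gap. Gpx8, a peroxidase of the endoplasmic reticulum, had the largest difference, with 35.3, 57.1, 43.5 and 39.6 against 24.1, a log2 difference of 0.67 (limma adjusted p = 0.980). The mitochondrial enzyme Sod2 had 232, 188, 249 and 186 against 168, and the mitochondrial thioredoxin Txn2 379, 454, 491 and 391 against 342. Prdx2, a cytosolic peroxiredoxin, was the 1 below, with 5147, 5982, 5315 and 6049 against 6078. Of 10 measured genes of the Nrf2 and glutathione response, which answers oxidative and electrophilic stress, 5 were above (Gstp1, Gstm1, Gsta4, Gclm and Me1), 1 below (Keap1, the adaptor that marks Nrf2 for destruction) and 0 had a gap. The log2 differences of those 5 ran from 0.21 to 0.33, and the list median was 0.18.

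The genes of the unfolded protein response, which adjusts the endoplasmic reticulum to misfolded protein through the PERK-ATF4, IRE1-XBP1 and ATF6 branches, did not lie on 1 side. Of 25 measured, 8 were above the control (32% against 18.8% of all tested genes), 4 below (16% against 20.2%), and 1 had a gap. Without replicate 2, 12 were above, and without replicate 4, 8 were above and 8 below. The list median was 0.04 and became -0.02 without replicate 3. Herpud1, which helps extract misfolded proteins from the endoplasmic reticulum, had 572, 411, 687 and 367 in the wild-type pools, 405 ± 76.8 (SD, n = 4) in the mutant pools and 221 in the control. All wild-type pools were above the control, but they differed so much among themselves that the gap stayed within their range. Its log2 difference was 1.13 (SE 0.29). Atf4, the transcription factor of the PERK branch, had 1526, 1357, 1558 and 1354 against 1054, a log2 difference of 0.45 (SE 0.14) with a gap over the range, and the mutant pools had 1552 ± 169. Of the genes ATF4 is known to act on, Ddit3 had 51.3, 74.0, 58.4 and 41.0 against 35.3. Trib3 had 13.0, 28.1, 20.2 and 17.3 against 8.63 on 1 probe set. Its other 2, under the filter, had pools on both sides of the control. Asns and Chac1, also measured, had pools on both sides too, with log2 differences of 0.05 and 0.04. The chaperone Hspa5, also called BiP, had 2996, 2737, 3211 and 2721 against 2549, a log2 difference of 0.19. Xbp1, the transcription factor of the IRE1 branch, lay below the control with 807, 630.5, 709 and 904 against 991, a log2 difference of -0.39, as did Hyou1, Pdia6 and Hsp90b1.

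The promoters of Herpud1, Hspa5 and Xbp1 are shown because these genes of 1 pathway stood differently in the wild-type pools. The ER stress response element, CCAAT and CCACG with any 9 bases between them, is in capitals for Hspa5 (chr3:38452766-38453015, plus strand, 43 to 25 bases before the start) and for Xbp1 (chr14:84604373-84604622, plus strand, 65 to 47 bases before). The C/EBP-ATF response element, TGATGCAA, is in capitals on the opposite strand for Herpud1 (chr19:10614708-10614957, minus strand, 184 to 177 bases before). All are GRCr8 sequences from RefSeq, 250 bases up to the start, and both strands were searched. For the ER stress response element only the 9-base spacing was searched. The Herpud1 window also holds ATTGG and CCACG with 1 base between them, a form that was not counted.
Herpud1: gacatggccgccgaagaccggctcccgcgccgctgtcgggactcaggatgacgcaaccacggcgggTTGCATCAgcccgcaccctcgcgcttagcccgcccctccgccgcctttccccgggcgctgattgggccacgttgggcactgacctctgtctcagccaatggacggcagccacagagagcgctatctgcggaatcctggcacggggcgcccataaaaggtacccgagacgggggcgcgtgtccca
Hspa5: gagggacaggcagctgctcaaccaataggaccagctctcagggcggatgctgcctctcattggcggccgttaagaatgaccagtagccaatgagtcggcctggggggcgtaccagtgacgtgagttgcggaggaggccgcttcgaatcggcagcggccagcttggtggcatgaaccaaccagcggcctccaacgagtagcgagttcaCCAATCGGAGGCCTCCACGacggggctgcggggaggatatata
Xbp1: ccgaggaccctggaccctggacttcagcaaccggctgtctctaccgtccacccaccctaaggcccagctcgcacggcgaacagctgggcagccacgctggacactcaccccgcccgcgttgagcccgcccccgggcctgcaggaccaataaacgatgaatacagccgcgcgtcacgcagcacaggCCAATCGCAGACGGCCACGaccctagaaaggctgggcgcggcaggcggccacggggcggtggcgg
Of the 21 measured genes of the list with a promoter in the table, 7 hold the ER stress response element (Calr, Canx, Creld2, Dnajc3, Hsp90b1, Hspa5 and Xbp1), where 0.066% of all 33469 promoters do, and 2 hold TGATGCAA (Chac1 and Herpud1), where 0.693% do. The genes with the ER stress response element stood on both sides: Hspa5 and Calr had all wild-type pools above the control, Xbp1 and Hsp90b1 all below, and Canx, Creld2 and Dnajc3 had pools on both sides. The 15 neuropeptide promoters held neither of these 2 motifs, and the unfolded protein response promoters held no TGACGTCA. These 3 motifs, both lists and the 4 printed promoters were chosen after the values were seen, and TGATGCAA was picked after the Herpud1 window had been read, so its match there is no evidence. A match describes the letters and shows no binding.

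The machines of protein synthesis, protein destruction and respiration were spread around small differences. Of 30 measured proteasome subunits, 11 had all wild-type pools above the control and 2 below, with 3 gaps above (Psmd4, Psmd2 and Psmb1) and a median of 0.07. Psmd4, a ubiquitin receptor of the proteasome cap, had 673, 619, 619 and 619 in the wild-type pools, 587 ± 43.7 in the mutant pools and 447 in the control, a log2 difference of 0.49 (SE 0.13). Psmd3, another subunit of the cap, had 358, 502, 426 and 353 against 261. Without replicate 3, 7 proteasome subunits in place of 2 were below the control, and with median centring 14 were above and 1 below. Of 24 measured ribosomal protein genes, 12 were above, 1 was below and 1 had a gap in each direction, Rpl35 above and Rpl12 below, with a median of 0.08. Of 36 measured genes of oxidative phosphorylation, 14 were above and 4 below, with gaps above for Ndufab1 and Ndufs4, 2 subunits of complex I, and a median of 0.09. Without replicate 3, 8 of them were below, and with median centring 19 were above and 1 below. The shares above were 36.7% for the proteasome, 50% for the ribosomal and 38.9% for the oxidative phosphorylation genes, against 18.8% of all tested genes. Ndufab1 had 628, 719, 719 and 617 against 521. The parts of the ATP synthase went both ways, with Atp5pf above the control and Atp5f1a and Atp5f1b below it.

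**Figure D3:**
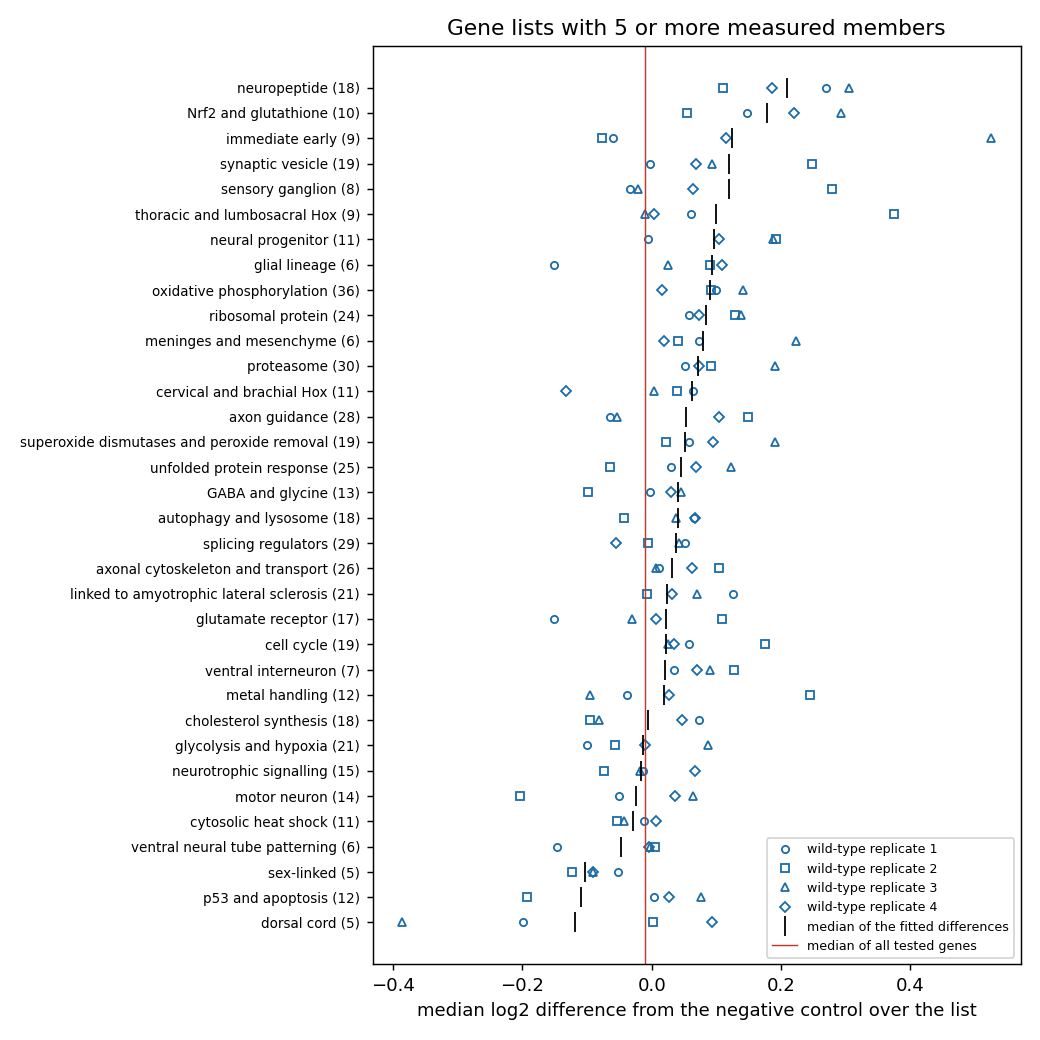
Median log2 difference from the control over each gene list with 5 or more measured members (number in brackets), 1 symbol per wild-type pool, with the median of the fitted differences as a bar and the median of all 9868 tested genes, -0.01, as a red line. Of 34 lists, 14 have all 4 symbols to the right of the line, 1 has all to the left and 19 have symbols on both sides, and the neuropeptide and the Nrf2 and glutathione lists have the highest medians, 0.21 and 0.18.

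Genes of the motor neuron programme did not lie on 1 side. Of 14 measured, 2 were above the control and 3 below with 0 gaps, and the median was -0.02. The genes below depend on the scaling and on replicate 4: with median centring 3 were above and 0 below, and without replicate 4, 5 were below. Chat, the enzyme that makes acetylcholine, had 123, 104, 132 and 161 in the wild-type pools against 163 in the control, and Slc5a7, which takes choline back into the terminal, had 222, 301, 288 and 356 against 356. Isl1, a LIM homeodomain factor of motor and sensory neurons, had 298, 323, 341 and 386 against 393, and 467.9 ± 104 in the mutant pools. In all 3 the pool of replicate 4 was level with the control or nearly so. Prph, an intermediate filament of neurons with peripheral axons, lay the other way, with 2090.3, 2132, 2632 and 2408 against 1847. Of 6 measured genes of ventral neural tube patterning, 0 were above and 1 below. Of 7 ventral interneuron genes, 2 were above (4 without replicate 4), Gata3 (153, 215, 217 and 148 against 136) and Tal1, both transcription factors of V2b interneurons. Gata3's other probe set had pools on both sides of the control, and Tal1's other one, under the filter, had all 4 pools below it. Of 8 sensory ganglion genes, 2 were above and 2 below, and Scn9a, a sodium channel of sensory neurons, had 236, 204, 289 and 184 against 137.

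Among genes that guide and feed growing axons, single members stood out. Sema6a, a transmembrane semaphorin that acts on axons and on cell positions at the cord's exit points, had 296, 434, 311 and 339 in the wild-type pools against 172 in the control on probe set 1382868_at, and 147, 168, 162 and 237 in the mutant pools. Every wild-type pool was above every other array. The log2 difference was 0.96 (SE 0.24) from the control and 0.93 (95% interval 0.60 to 1.26) from the mutant pools, the latter with a limma adjusted p of 0.133, which did not pass. It was 0.0368 with the arrays centred on their medians, 0.117 with quantile normalization, 0.552 without the intensity trend and 0.959 when the actin ratio was a covariate, and leaving out 1 pool at a time it ran from 0.0450, without mutant replicate 4 and the 1 of 8 such fits that passed, to 0.482. Its second probe set, 1376601_at, had all wild-type pools above the control with a log2 difference of 0.56 but differed from the mutant pools by 0.16 (95% interval -0.25 to 0.57). Of its other 3, all under the filter, 1378005_at and 1396046_at had all pools above the control, and 1376220_at had pools on both sides. Of 28 measured axon guidance genes, 4 were above (Sema6a, Slit1, Slit3 and Ephb1), 5 below (Robo2, Robo3, Plxna4, Ntn1 and Unc5c), with gaps above for Sema6a and Slit1. These shares, 14.3% and 17.9%, were under the 18.8% and 20.2% of all tested genes. Slit1 had 42.3, 44.0, 48.4 and 58.8 against 27.8.

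Ptn, which codes for pleiotrophin, a heparin-binding growth factor, was lower in the wild-type pools. It had 351, 389, 415 and 414 in them, 522 in the control and 506 ± 36.7 (SD, n = 4) in the mutant pools, a log2 difference from the control of -0.41 (SE 0.14) with a gap over the range. Against the mutant pools it was -0.36 (95% interval -0.56 to -0.17, limma adjusted p = 0.697). Its relative Mdk, midkine, had 91.4, 95.1, 103 and 105 against 114, all below as well. Of 15 measured neurotrophic genes, 3 were above (Igf1, Bdnf and Ntrk2) and 3 below (Ptn, Mdk and Vegfa; 5 without replicate 2). Of the other 4 probe sets of Ntrk2, the receptor of BDNF, 1 had all pools below the control (log2 difference -0.59) and 3 had pools on both sides. The other Bdnf probe set, under the filter, had pools on both sides with a log2 difference of -0.55, and so did the other 2 of Igf1. Of 19 synaptic vesicle genes, 4 were above and 2 below, with 9 above under median centring and 9 above without replicate 1. Vamp2, the vesicle SNARE, had 230.4, 405, 317 and 328 against 192, and Sv2b, a vesicle glycoprotein, 769.6, 722, 539 and 729 against 472. Replicate 1 lay nearest the control for Vamp2 and replicate 3 for Sv2b. The second Vamp2 probe set, under the filter, had all 4 pools below the control, by a log2 difference of -0.53.

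Outside the lists, 2 probe sets of Ubl5, a small ubiquitin-like protein that acts in splicing and in the mitochondrial stress response, were higher with a gap. Its remaining probe set, 1399128_at, under the filter, had log2 differences of -0.02, 0.0, 0.54 and 0.29 in wild-type replicates 1 to 4. Probe set 1371589_at had 426, 406, 389 and 373 in the wild-type pools against 226 in the control, and the mutant pools had 234, 272, 287 and 292. The wild-type pools lay above all other arrays, 0.80 log2 units above the control (SE 0.15) with a limma adjusted p of 0.479, and 0.54 above the mutant pools (95% interval 0.34 to 0.75, limma adjusted p = 0.188). Probe set 1371590_s_at had 445 ± 14.9 against 328, a log2 difference of 0.43, and differed from the mutant pools by 0.14 (95% interval -0.08 to 0.35). Agreement of this kind was uncommon. Of 2562 genes with 2 or more probe sets above the filter, 230 had at least 1 gap. In 48 of these every probe set had the 4 pools on the same side, 19 higher and 29 lower, and in 46 probe sets of the same gene stood on opposite sides.

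The genes with the largest median difference among those 19 were Sema6a, Ubl5, Tars2, Fam220a, Ccdc93, Col5a2, Acsl5 and Pcbd2, with medians of 0.76 to 0.44. Tars2, the mitochondrial threonyl-tRNA synthetase, owes its place to a dim probe set at 18.3 ± 4.35 against 4.06, while its bright one had 460.7 ± 19.6 against 439.9. Acsl5, which activates long-chain fatty acids, had 277, 267, 274 and 283 against 219.7 on its brighter probe set, with a mutant mean of 270.4. Among the 29 that were lower, the largest were Tbc1d23, Rbpj, Bmp6, Ncam1, Ints7, Hunk, Slc16a13 and Pot1. Rbpj, the DNA-binding factor of Notch signalling, had all 4 pools below the control on each of 3 probe sets, the brightest with 866, 802, 794 and 849 against 993. With the actin ratio as a covariate, its log2 difference went from -0.58 to -0.09 on 1392668_at. On 1379302_at it went from -0.65 to -0.49, and on 1381969_at from -0.26 to -0.22. Ncam1, an adhesion molecule of neurons, was below on 3 probe sets too, with 68.2, 82.2, 70.0 and 86.5 against 117 on 1379389_at. With the actin covariate, its log2 difference went from -0.26 to -0.10 on 1368320_at. It went from -0.57 to -0.61 on 1379389_at and from -0.51 to -0.52 on 1377368_at. Bmp6, a bone morphogenetic protein, had 47.2, 58.8, 61.9 and 55.7 against 88.1 on its brighter one.

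Ddx42, a DEAD-box RNA helicase, is a gene whose probe sets disagree. Probe set 1379896_at had 86.0, 99.4, 65.3 and 49.1 in the wild-type pools, 21.0 to 24.1 in the mutant pools and 21.5 in the control. Its log2 difference was 1.44 (SE 0.29, limma adjusted p = 0.536) from the control and 1.40 (95% interval 1.00 to 1.80, limma adjusted p = 0.0339) from the mutant pools, the latter past the threshold. Leaving out 1 pool at a time, that call held in 1 of 8 fits, the one without wild-type replicate 4, with adjusted p-values of 0.00448 to 0.195, and the actin ratio as a covariate gave 0.313. On the brighter probe set 1376596_at the 4 wild-type pools lay below the control, with 558, 499.9, 471 and 571 against 654, a log2 difference of -0.32. Ptbp3, a regulator of splicing, passed against the mutant pools (log2 difference 0.94, 95% interval 0.73 to 1.15, limma adjusted p = 0.00532) but not on account of a departure of the wild-type pools from the control. They had 1431, 1463, 1338 and 1159 on probe set 1382005_at, on both sides of the control's 1213, and the mutant pools had 699.9 ± 77.8. On the other Ptbp3 probe set, 1387432_at, under the filter, all 4 wild-type pools lay above the control, by log2 differences of 0.16 to 1.02. The call of 1382005_at held in all 8 fits that left out 1 pool and was lost with the actin ratio as a covariate (limma adjusted p = 0.0986). Of 29 measured splicing regulators, 2 were above and 6 below the control, but 4 and 4 with median centring and 8 and 6 without replicate 4.

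Other high values rested on single probe sets. Atxn2l, related to the RNA-binding protein ataxin-2, had the smallest p, with 27.0, 39.9, 50.1 and 36.6 in the wild-type pools, 33.3 ± 6.15 in the mutant pools and 2.21 in the control (log2 difference 2.13, SE 0.29, limma adjusted p = 0.0987). The lone control value stood apart from all 8 transgenic pools and lay under the pseudocount of 8.25 that was added before taking logs, so the size of this difference depends on that choice, from 1.01 to 3.21 over the alternatives tried. Traf6, a ubiquitin ligase of innate immune signalling, had 46.2, 59.7, 47.8 and 87.9 against 13.1, while the other 3 probe sets of the gene had log2 differences of -0.17, 0.35 and 0.15. Mrpl52, a protein of the mitochondrial ribosome, had 157, 259, 146 and 165 against 80.5, and its other probe set differed by 0.13. Mtf1, the zinc sensor that switches on metallothioneins, had 45.9, 26.3, 30.9 and 28.4 against 10.8, with 0.23 and 0.29 on its other 2. Crygn, a gamma-crystallin, had 36.7, 31.8, 34.4 and 35.4 against 12.5. Rnf138l1 and Arap1 had log2 differences of 1.05 and 0.96.

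The clearest low values were those of Alkbh1, Ccm2 and Nol9. Alkbh1, a demethylase that acts on DNA and tRNA, had 310.01, 267, 270.5 and 309 in the wild-type pools, 356 ± 26.1 in the mutant pools and 486 in the control, a difference of -0.74 in log2 units (SE 0.15) with a limma adjusted p of 0.536. Its other probe set, under the filter, had pools on both sides of the control, with a log2 difference of 0.18. Ccm2, a scaffold protein named for cerebral cavernous malformations, had 142, 155, 174 and 169.5 against 251, a log2 difference of -0.63, and the mutant pools had a mean of 149.7. Nol9, a polynucleotide kinase of ribosomal RNA processing, had 345, 357, 359.6 and 350.1 against 484, and the 4 pools varied by an SD of 6.59. Txnip, which binds thioredoxin and limits glucose uptake, had 241, 207, 179 and 182 against 360.4, a log2 difference of -0.82 (SE 0.26). Mdm2, the ubiquitin ligase of p53, had 306, 327, 311 and 338 against 397, while its second probe set above the filter differed by 0.04. Of 12 measured genes of the p53 response and apoptosis, 3 were above (5 without replicate 2) and 3 below the control.

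The largest low values also included genes whose probe sets disagree. Appl1, an endosomal adaptor, had 189.8, 151, 164 and 194 against 352 on 1389539_at (log2 difference -0.98), but differences of -0.04, 0.21 and -0.15 on its other 3 above the filter. Zeb2, a zinc finger repressor of the neural crest, had 22.3, 28.8, 21.9 and 20.3 against 47.5 on 1382252_at, and differences of 0.11, 0.63 and 0.18 on its other 3 above the filter, and -0.25 on 1 under it. Xrn2, a nuclear exoribonuclease, was -0.88 on 1 probe set and -0.13 on the other, and Syn2, a synapsin, -0.88 and -0.02, with 0.11 on a Syn2 probe set under the filter. Spred3, Sult5a1 and Naif1 were lower by log2 differences of -0.90, -0.86 and -0.81, and in all 3 the wild-type mean was under 29.

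**Figure D4:**
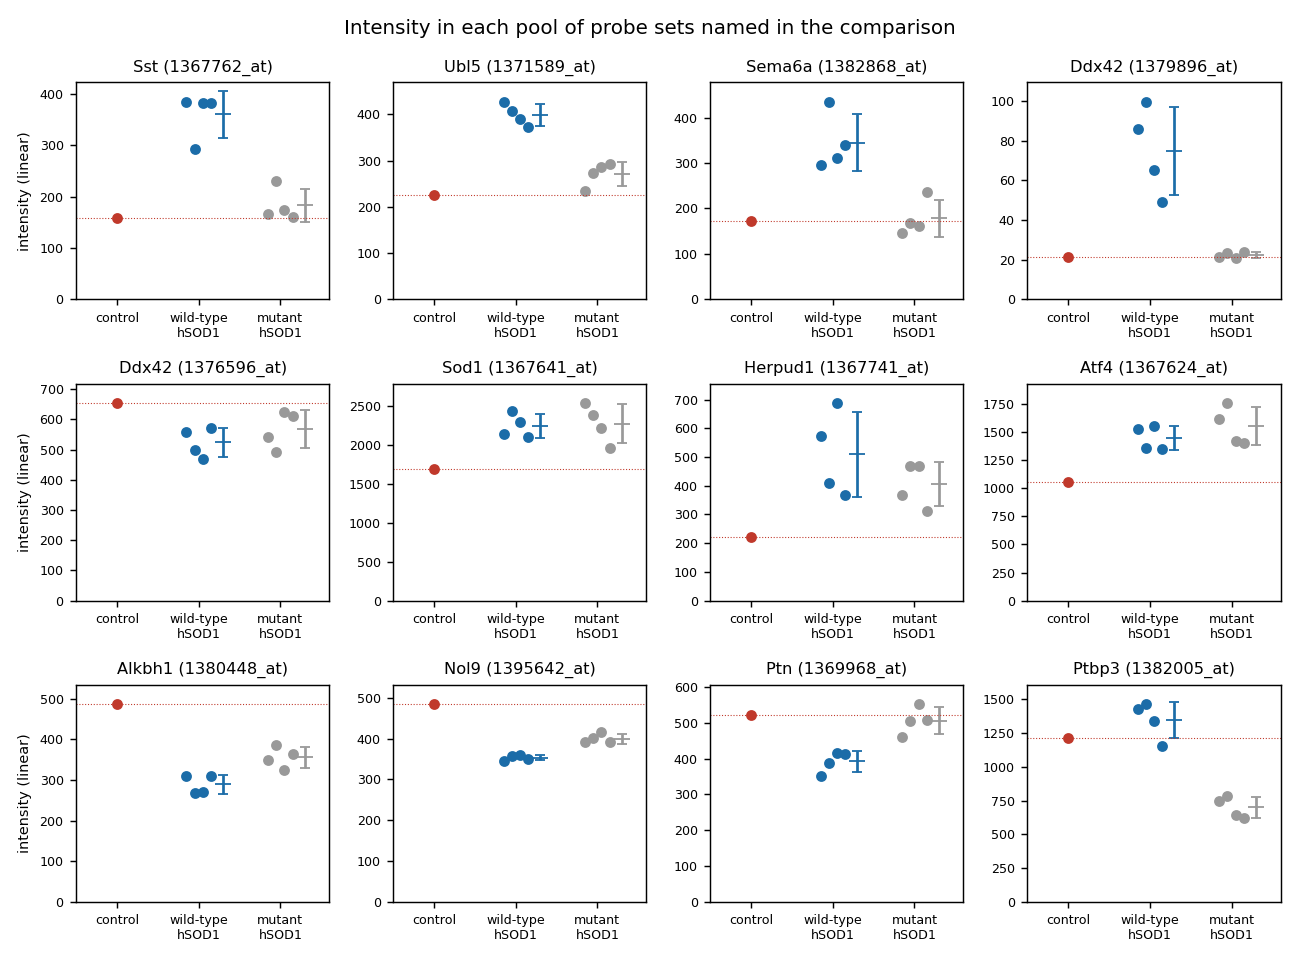
Intensity on the linear scale of 12 probe sets in every pool: the control in red with a dotted line at its level, the 4 wild-type pools in blue and the 4 mutant pools in grey, each with its mean and SD beside the points. For Sst, Ubl5, Sema6a and the first Ddx42 probe set the wild-type pools lie above all other arrays, for Sod1, Herpud1 and Atf4 both transgenic groups lie above the control, and for Ptbp3 only the mutant pools are far from it.

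Position along the body axis was compared through the Hox genes, whose expression marks cord levels. Of 11 measured cervical and brachial Hox genes 3 were above the control and 1 below, and of 9 thoracic and lumbosacral ones 2 were above (4 without replicate 3) and 2 below. Hoxa5, a gene of the cervical cord, had 2029.9, 1850.3, 1782 and 1802 against 2299, and 2266 ± 143 in the mutant pools. Hoxc8, of the thoracic cord, had 40.7, 56.5, 33.6 and 41.1 against 24.2, and Hoxa11, of the lumbar cord, 84.7, 138, 92.9 and 121 against 151.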

How the data were processed

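Ventral spinal cord RNA of 9 embryo pools was measured on Affymetrix rat arrays. The authors deposited 1 linear intensity per probe set and array; the labels and the table name no software. From the values, each array was scaled to a mean of 150.05 after trimming 2% at each end, and no further normalization was added. For arrays there is no read depth, and the number of arrays limits the precision. Groups came from the labels. The replicate numbers were not used to pair the pools in the main fits. Departures of same-numbered wild-type and mutant pools from their group means correlated at 0.12, 0.09, -0.07 and 0.20. Differently numbered pools were not compared in this way, so these values do not settle whether the numbers mark pairs.

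Of 31099 probe sets, 57 array controls were left out. Intensities were taken to log2 after adding 8.25, the 25th percentile of all values, and 18625 probe sets above the 40th percentile of mean log2 value were tested with limma 3.58.1 in R 4.3.3 (lmFit, eBayes with an intensity trend, Benjamini-Hochberg, threshold 0.05). All 9 arrays were fitted for wild-type minus control and 8 for wild-type minus mutant. Log2 differences are on the log2(intensity + 8.25) scale and understate those of dim probe sets.

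The platform annotation gave 20826 probe sets 1 symbol, 436 several and 9780 none; 20764 were matched by Entrez identifier to RefSeq's gene table and 0 symbols differed. The 39 gene lists, with 1 probe set per gene, hold 846 entries, and each is described by counts and medians. Besides the lists named in the text, the cytosolic heat shock, autophagy, glycolysis, cholesterol, cell cycle, metal handling, axonal transport, glutamate, GABA and glycine, and glial lists were counted. The members, lists and rules were chosen with earlier results of these data known.

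Named were, among probe sets with 1 symbol, the 8 largest gaps per direction with both means above the pseudocount, 8 genes per direction whose probe sets agreed, the 5 smallest p-values per direction, every probe set past the threshold against the mutant pools, and up to 3 members per list, with Sod1 always. Other members of the described lists were chosen after their values were seen. Alternatives were quantile normalization, median centring, 2 other pseudocounts, no filter or one at the 60th percentile, other eBayes settings, 1 probe set per gene, array weights, a covariate for the le2 tag or for the log2 actin ratio, other sets of arrays, a replicate block and leaving out each pool.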

Additional observations from a re-analysis of the deposited data

Results flagged for a closer look

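Among 165 values checked over the 4 wild-type pools (163 named probe sets and both 3'/5' ratios), 5 had 1 pool set apart from the other 3; chance flags about 1 in 20 groups. The actin 3'/5' ratio was 19.2 in replicate 2 against 8.19 to 9.20 in the others. Replicate 2 also stood apart, below the others, for Sst, with 292 against 382 to 384, and for Dnaja1, a cytosolic chaperone, with 2582 (2580 to 3 digits) against 3001 to 3082. Without it the log2 difference of Sst from the control was 1.23 in place of 1.14. Replicate 1 stood above the others for Psmd4, with 673 against 619, and replicate 4 below them for Stmn4, a stathmin of growing axons, with 903 against 1111 to 1157.

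The difference from the mutant pools itself was tested by limma, and the wild-type pools were higher for Ddx42 on 1379896_at by 1.40, for Sst by 0.95 (0.954) and for Ptbp3 by 0.94 (0.938) on the log2 scale, with all 4 wild-type pools above all 4 mutant pools in each. All 4 wild-type pools were also above the control for Sst and for this Ddx42 probe set, a difference that did not pass limma, and lay on both sides of it for Ptbp3.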

How the results depend on the processing

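Between wild-type pools and control, 1 probe set, Atxn2l, passed limma's threshold in place of 0 with median centring, with a pseudocount of 2.06 and with 1 probe set per gene, and 0 or 1 passed when a wild-type pool was left out, 1 of them without replicate 1. Between wild-type and mutant pools, where 3 passed, 5 passed with median centring, 1 without a filter, 1 with the filter at the 60th percentile, 1 with the le2 tag as a covariate, 0 without the intensity trend (993 at an unadjusted p under 0.05) and 0 with a covariate for the actin ratio (680), and leaving out 1 pool of either group left 1 to 3. Of the 3, Ptbp3 passed in every leave-one-out fit. A replicate block gave 3 calls, Ddx42, Ptbp3 and Tm9sf3, and the labels do not tie equal numbers to a shared litter or day. Without a filter, 11866 probe sets were on 1 side and 1604 had a gap, and with the stricter filter 570 had one, where fewer or more were tested; with 1 wild-type pool fewer 8500 to 9427 were on 1 side and 1804 to 2477 had a gap, since 3 pools are more easily on 1 side. The share of gaps that were higher was 57.7% with quantile normalization. Of 2697 values of named probe sets against the control under the alternatives, 2678 kept their direction and side of the threshold, 4 of Atxn2l passed it and 15 changed sign: Tek to 0.032 with quantile normalization, 0.023 with median centring and, from -0.085, to 0.0159 with 1 pool fewer (above 0 without replicate 1 or 4); Wnt1 to -0.084 with the le2 tag and -0.17 with the actin ratio; Col5a1 to -0.000791 with le2; Col11a1 to 0.054 with le2 and 0.039 with actin; and, with the actin ratio, Gata2 from 0.22 to -0.26, Fn1 to 0.0027, Esam to 0.21 (-0.32 to 0.0075 with 1 pool fewer), Tfrc to 0.029 and Lamp1 from 0.22 to -0.037. Against the mutant pools, Sod1 changed sign to 0.0026 with median centring and ranged from -0.087 to 0.037 with 1 pool fewer, and the second Sema6a probe set changed to -0.020 with the actin ratio. The cause was not tested. Of 377 list medians, 365 moved by less than the SD of the pools. The single control and the actin ratio, confounded in part with the group, limit every value here.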
